A study of Mus musculus with 10 samples.

Results

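Aminoacyl-tRNA synthetases are described here by the RNA of their genes in mouse heart. The 36 genes are those rows of the deposited table whose gene name is on a list of 20 cytosolic and 16 mitochondrial enzymes, out of 24888 genes in all, and each of the 36 was found under its listed symbol. The list was not chosen by level or by change. SPOP_CKI denotes 5 hearts with the genotype CKI, in which SPOP, the substrate adaptor of a cullin-3 ubiquitin ligase, is overexpressed through Cre recombinase under the αMHC (Myh6) promoter, which is active in cardiomyocytes. Cre_control denotes 5 hearts titled WT with the genotype Myh6Cre, so that both groups carry the Cre transgene. All 10 mice are labelled male, 8 to 10 weeks old and under sham conditions. The tissue is heart, labelled as cardiac cell populations, and poly(A) RNA was sequenced.

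Each synthetase joins an amino acid to its own tRNA, the step that sets which residue a codon is read as. The cytosol and the mitochondrion use separate sets of these enzymes, all encoded in the nucleus. Gars (glycine) and Kars (lysine) supply both compartments from a single gene, Eprs joins glutamate and proline in a single polypeptide, and Farsa and Farsb are the subunits of cytosolic phenylalanyl-tRNA synthetase. Mitochondria have no separate glutaminyl-tRNA synthetase and make that charged tRNA through Ears2 and an amidotransferase. In mammals several cytosolic enzymes sit on the scaffold proteins Aimp1, Aimp2 and Eef1e1 in a multisynthetase complex. The transcription factor ATF4, the effector of the integrated stress response, is known to raise the RNA of many cytosolic synthetases, and WARS is known to be induced by interferon gamma. In heart, defects of mitochondrial synthetases such as AARS2 are known from inherited cardiomyopathy.

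The 10 libraries held 15316293 to 17114869 reads. Values below are scaled reads, that is, reads per gene divided by the authors' size factor of the library, and fold changes are differences of log2(scaled reads + 1), SPOP_CKI minus Cre_control, tested with limma over 14212 genes with Benjamini-Hochberg adjustment at 0.05. The mean of Spop was 31897 ± 6254 scaled reads in SPOP_CKI against 3425 ± 317 in Cre_control (SD, n = 5 libraries), a log2 fold change of 3.20 (SE 0.17, limma adjusted p = 6.15e-06), and the lowest SPOP_CKI library lay above the highest control. Of all genes tested, 10.0% were called higher and 12.3% lower. No label ties the hearts to litters or days, and a p-value here reflects only how these libraries vary, which may be technical. SPOP_CKI 1, SPOP_CKI 3 and Cre_control 5 held 6491, 6578 and 4491 scaled reads of Xist, which is transcribed from the inactive X chromosome of female cells, although they are labelled male. The other 7 held at most 5.31. SPOP_CKI 3 also stood apart, being the lowest of the 10 libraries for 37.4% of tested genes and the highest for 21.6%. Results that rest on these libraries are therefore given with and without them.

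In SPOP_CKI hearts 4 of the 16 mitochondrial synthetase genes fell (Fars2, Iars2, Aars2 and Pars2) and none rose, and the median log2 fold change was -0.55. Of the 20 cytosolic genes, 1 rose (Rars) and 1 fell (Qars), and the median was 0.06. The median over all genes tested was -0.11, and the share of all genes called was 10.0% for higher and 12.3% for lower. All 36 genes passed the minimum of 10 scaled reads in 5 libraries. All 16 mitochondrial fold changes were below 0, from -2.72 for Vars2 to -0.00 for Mars2 (mean 340 ± 87.8 in SPOP_CKI and 332 ± 22.6 in Cre_control), whereas 13 of the 20 cytosolic ones were above 0. With DESeq2 or edgeR on recovered reads, or with centring by GC content, 15 of the 16 mitochondrial values were below 0, and with quantile normalization 14 were. No mitochondrial gene was higher at an unadjusted p under 0.05 with limma (0 of 16), and DESeq2 and edgeR also called 0 higher. DESeq2 called 5 lower, where 14.3% of all genes were, and edgeR 4, where 10.4% were.

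Summed over the 16 genes, mitochondrial synthetase RNA ranged from 4175 to 6320 scaled reads in SPOP_CKI and from 7418 to 7987 in Cre_control, with no overlap. Iars2 (mean 1951 in Cre_control and 1163 in SPOP_CKI) and Fars2 (981 and 451) weigh heavily in this sum. The means of Ears2 (218 and 214), Rars2 (242 and 235) and Mars2 (332 and 340) hardly differed. Summed over the 20 genes, cytosolic synthetase RNA ranged from 17926 to 27680 in SPOP_CKI and from 18039 to 19743 in Cre_control, and the ranges overlapped. In bulk heart RNA, fewer cells of a type and less RNA per cell cannot be told apart.

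**Figure D1:**
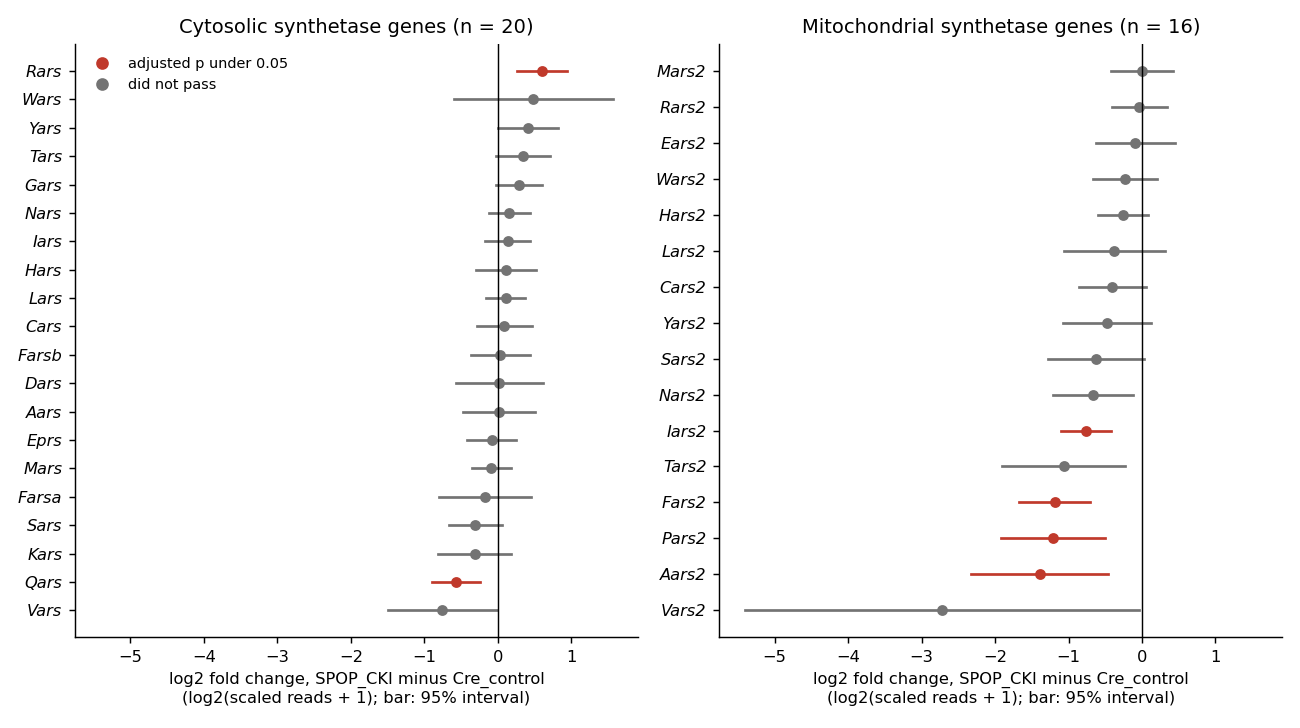
Log2 fold change of log2(scaled reads + 1), SPOP_CKI minus Cre_control, for the 20 cytosolic genes (left) and the 16 mitochondrial genes (right), with 95% intervals from limma; red marks an adjusted p under 0.05. The mitochondrial points lie at or below 0, with Fars2, Iars2, Aars2 and Pars2 called lower, while the cytosolic points lie on both sides of 0, with Rars called higher and Qars lower.

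Levels per length spanned a wide range within both sets. Per kilobase of gene length as listed in the authors' table, the level of cytosolic genes in Cre_control ranged from 38.1 to 502 scaled reads per kb, with a median of 192. The mitochondrial genes ranged from 20.9 to 220 per kb, with a median of 65.7. Nars, the asparaginyl enzyme, stood highest of the 36 at 502 ± 34.3 per kb, followed by Gars at 427 ± 55.4 and Kars at 425 ± 29.8, and the single controls of each gene overlapped those of the next in this order. Iars2 (220 ± 14.1 per kb) and Fars2 (171 ± 12.1 per kb) stood highest among the mitochondrial genes, above the median of the cytosolic ones for Iars2 and below it for Fars2. Wars2 stood lowest at 20.9 ± 3.03 per kb.

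The promoters of the mitochondrial genes whose change was most stable across processing are shown next, together with Aars2, which was also called lower. RefSeq (GRCm38.p6) promoter windows, 250 bases before to 50 after the start of transcription, were matched for 27 of the 36 genes, 13 cytosolic and 14 mitochondrial. Cars, Hars, Lars, Nars, Rars, Vars, Wars, Hars2 and Pars2 had no entry. Printed are 120 bases before to 30 after the start, 5′ to 3′ on the strand of the gene, for Fars2 (chr13:36117523-36117672, plus strand), Iars2 (chr1:185329372-185329521, minus strand) and Aars2 (chr17:45506712-45506861, plus strand). Capitals mark the NRF1 palindrome in Iars2 and AAGATGGCG, the site bound by YY1, in Aars2, each on either strand.
Fars2: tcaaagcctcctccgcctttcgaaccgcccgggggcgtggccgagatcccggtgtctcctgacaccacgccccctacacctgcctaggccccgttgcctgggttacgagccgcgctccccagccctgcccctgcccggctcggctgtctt
Iars2: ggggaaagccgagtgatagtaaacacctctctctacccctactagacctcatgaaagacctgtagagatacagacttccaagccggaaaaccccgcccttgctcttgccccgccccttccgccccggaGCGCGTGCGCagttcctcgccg
Aars2: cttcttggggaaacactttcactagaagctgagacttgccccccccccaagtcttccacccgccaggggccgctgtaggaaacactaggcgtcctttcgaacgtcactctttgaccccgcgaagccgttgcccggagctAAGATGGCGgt
The 6 motifs searched on both strands of the 300-base windows were TGATGNAA, the NRF1 palindrome, CCGGAAG (ETS factors), AAGATGGCG, AAGGTCA (the core site of estrogen-related receptors, regulators of mitochondrial genes in heart) and the core of the interferon-stimulated response element. The NRF1 palindrome was present in 2 of 14 mitochondrial (Iars2, Mars2) and 3 of 13 cytosolic promoters, against 4.6% of the 32851 promoters of RefSeq. AAGATGGCG was present in 3 of 14 mitochondrial promoters (Aars2, Wars2, Yars2) and 1 of 13 cytosolic ones (Farsa), against 1.4% of all promoters. CCGGAAG was present in 4 of 14 and 5 of 13, against 8.86%. AAGGTCA was in none of the 27 windows (4.72% of all promoters), and the interferon-stimulated response element core was in 1, that of Qars (3.44% of all promoters). Fars2 matched none of the 6 motifs in its window. No matches to different motifs overlapped in these promoters, and a match describes letters, not a bound site.

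Fars2 and Iars2 were called lower in all 21 alternative settings. Fars2 (ENSMUSG00000021420, mm10 chromosome 13, 36117412 to 36726280, plus strand) encodes mitochondrial phenylalanyl-tRNA synthetase, which acts as a single chain. Its scaled reads were 655, 302, 344, 354 and 602 in SPOP_CKI 1 to 5 and 1013, 1023, 940, 1050 and 881 in Cre_control 1 to 5. Every SPOP_CKI library lay below every control, and SPOP_CKI 1 and 5 lay nearest to them. The means were 451 ± 164 and 981 ± 69.4, and the log2 fold change was -1.19 (SE 0.22, limma adjusted p = 0.00442).

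Iars2 (ENSMUSG00000026618, chromosome 1, 185284726 to 185329396, minus strand), the mitochondrial isoleucyl-tRNA synthetase, was lower in every heart. Its scaled reads were 1225, 814, 1380, 1186 and 1208 in SPOP_CKI 1 to 5 and 1765, 1959, 1995, 1926 and 2111 in Cre_control 1 to 5. The groups did not overlap, and SPOP_CKI 2 was the lowest library. The means were 1163 ± 209 and 1951 ± 126, a log2 fold change of -0.77 (SE 0.16, limma adjusted p = 0.00658). Of the 8885 exonic bases of Iars2 in GENCODE M21, 2034 are shared with Rab3gap2 on the opposite strand, whose own log2 fold change was 0.64 (limma adjusted p = 0.0583), and whether the counting used strand is not stated in the labels.

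Aars2 and Pars2, which charge alanine and proline in mitochondria, also fell, from lower levels. Aars2 (ENSMUSG00000023938, chromosome 17, 45506841 to 45520843, plus strand) stood at 209, 131, 34.2, 146 and 156 scaled reads in SPOP_CKI 1 to 5 and 361, 365, 219, 394 and 245 in Cre_control 1 to 5. Its groups did not overlap, with SPOP_CKI 3 far the lowest. Aars2 had a log2 fold change of -1.39 (SE 0.42, limma adjusted p = 0.0361) and -0.96 without SPOP_CKI 3 (limma adjusted p = 0.00661). Its call was lost when 1 of 6 other libraries was left out, with limma adjusted p from 0.0519 without SPOP_CKI 2 to 0.0905 without Cre_control 4.

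Pars2 (ENSMUSG00000043572, chromosome 4, 106651069 to 106655282, plus strand) stood at 43.4, 38.8, 24.5, 31.4 and 67.3 scaled reads in SPOP_CKI 1 to 5 and at 116, 71.9, 77.1, 99.0 and 98.6 in Cre_control 1 to 5. SPOP_CKI 5 was the nearest to the controls and still below each of them. Pars2 had a log2 fold change of -1.21 (SE 0.32, limma adjusted p = 0.0207). The call was lost without Cre_control 1 (limma adjusted p = 0.0646) or without Cre_control 4 (limma adjusted p = 0.0537).

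Tars2 and Vars2, the mitochondrial threonyl and valyl enzymes, had groups that did not overlap but did not pass the limma test with all 10 libraries. With all 10 libraries Tars2 was called lower by DESeq2, and both genes were with quantile normalization and with array weights, and Vars2 also with a pseudocount of 10. Tars2 (chromosome 3, 95739976 to 95760206, minus strand) stood at 315, 317, 77.1, 351 and 370 scaled reads in SPOP_CKI 1 to 5 and at 568, 638, 494, 523 and 438 in Cre_control 1 to 5. Its log2 fold change was -1.07 (SE 0.38, limma adjusted p = 0.0652), and without SPOP_CKI 3 it was -0.64 (limma adjusted p = 0.00698). Vars2 (chromosome 17, 35655634 to 35667592, minus strand) stood at 181, 100, 0, 120 and 158 in SPOP_CKI 1 to 5 and at 366, 359, 344, 382 and 255 in Cre_control 1 to 5. The 0 in SPOP_CKI 3 allows up to 2.63 scaled reads, the value of 3 reads in that library (counting error only). The log2 fold change of Vars2 was -2.72 (SE 1.22, limma adjusted p = 0.130) with that library and -1.30 (SE 0.21, limma adjusted p = 0.00085) without it. In all, 6 of the 16 mitochondrial genes had SPOP_CKI below Cre_control in every library (Fars2, Iars2, Aars2, Pars2, Tars2 and Vars2), against 12.3% of all genes tested.

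**Figure D2:**
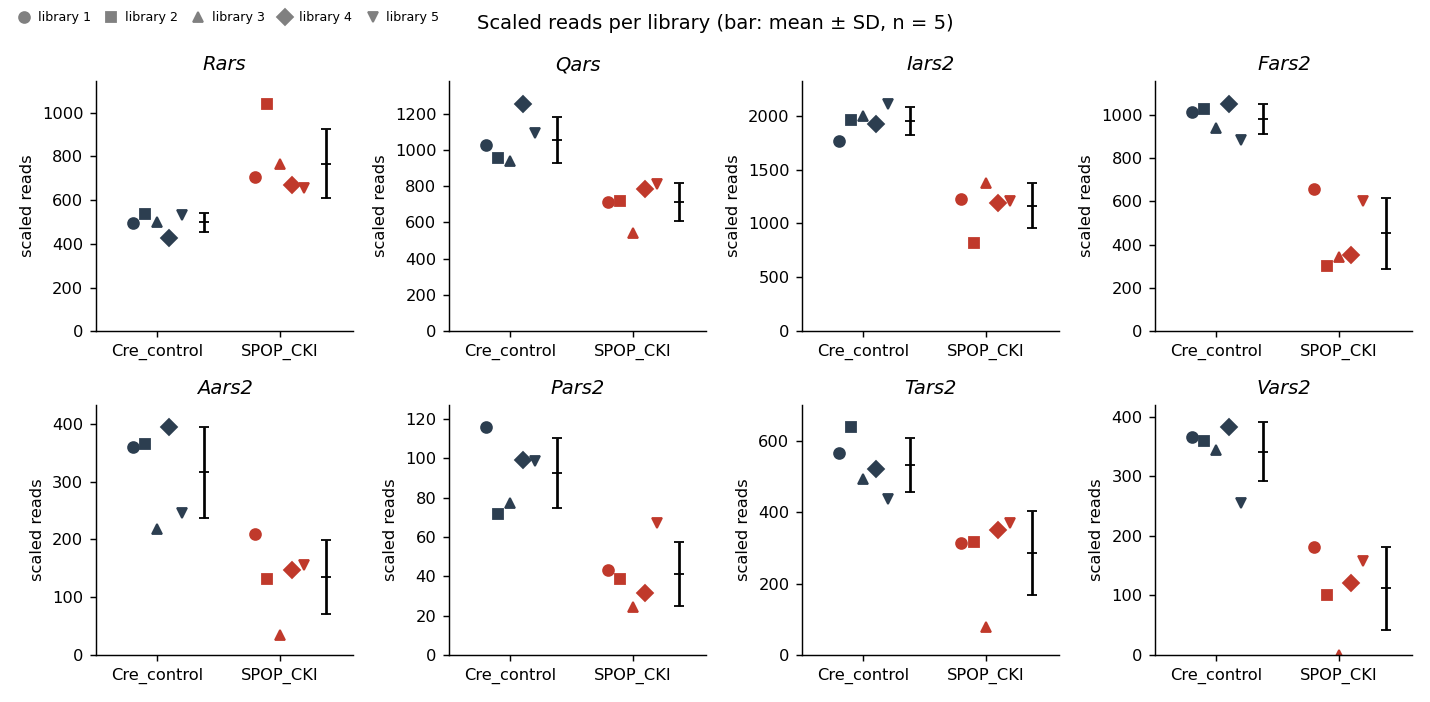
Scaled reads in each library (marker shape gives the library number) with mean ± SD over 5 libraries per group, for Rars, Qars, Iars2, Fars2, Aars2, Pars2, Tars2 and Vars2; every vertical axis starts at 0. The groups do not overlap in any of the 8 genes, SPOP_CKI 3 is the lowest point for Qars, Aars2, Pars2, Tars2 and Vars2, and SPOP_CKI 2 is the highest for Rars.

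The remaining 10 mitochondrial genes did not pass. Nars2 had a log2 fold change of -0.67 (limma adjusted p = 0.0763), Sars2 of -0.63 (limma adjusted p = 0.153), Yars2 of -0.48 (limma adjusted p = 0.226) and Cars2 of -0.40 (limma adjusted p = 0.179), each with overlapping groups. Lars2, the leucyl enzyme, stood at 783, 591, 474, 644 and 1911 scaled reads in SPOP_CKI 1 to 5 and between 884 and 1124 in Cre_control. SPOP_CKI 5 was thus the highest of the 10 libraries while the other 4 lay below every control. Its log2 fold change was -0.37 (limma adjusted p = 0.399) with that library and -0.70 without it (limma adjusted p = 0.0131). Hars2 (-0.26), Wars2 (-0.23), Ears2 (-0.09), Rars2 (-0.04) and Mars2 (-0.00) had the smallest differences, and the 95% interval of Rars2 ran from -0.41 to 0.34. By enzyme class, 3 of the 7 class II genes and 1 of the 9 class I genes among the mitochondrial enzymes fell, where 12.3% of all genes did, with median log2 fold changes of -1.07 and -0.37. Without SPOP_CKI 3 the counts were 5 of 7 and 4 of 9, where 17.4% of all genes were called lower, with medians of -0.85 and -0.28.

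Without SPOP_CKI 3, 9 of the 16 mitochondrial genes were called lower, where 17.4% of all genes were. Cars2, Sars2, Tars2, Vars2 and Yars2 joined Fars2, Iars2, Aars2 and Pars2, and the median was -0.61. Without the 3 libraries with Xist reads 9 were again called lower, the same 9 genes, where 17.1% of all genes were, and the median was -0.69. With array weights, which count variable libraries less, 10 were called lower, where 20.3% of all genes were. Without Cre_control 4 only Fars2 and Iars2 were called, where 7.54% of all genes were called lower, and without Cre_control 1 it was again these 2, where 7.39% of all genes were called lower and 6.44% higher.

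Among the cytosolic enzymes, arginyl-tRNA synthetase rose and glutaminyl-tRNA synthetase fell, and both belong to the multisynthetase complex. Rars (ENSMUSG00000018848, chromosome 11, 35808381 to 35834506, minus strand) stood at 704, 1041, 765, 670 and 654 scaled reads in SPOP_CKI 1 to 5 and at 496, 539, 499, 428 and 534 in Cre_control 1 to 5. Every SPOP_CKI library lay above every control, which held for 9.01% of all genes tested, and SPOP_CKI 2 was the highest. Rars had a log2 fold change of 0.60 (SE 0.16, limma adjusted p = 0.0197). It was 0.55 without Cre_control 4 (limma adjusted p = 0.0522), so that 0 of 20 cytosolic genes were called higher there, where 6.36% of all genes were. It was 0.28 (limma adjusted p = 0.274) after each library was centred within bins of transcript GC content.

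Qars (ENSMUSG00000032604, chromosome 9, 108507706 to 108515941, plus strand) stood at 710, 717, 541, 785 and 811 scaled reads in SPOP_CKI 1 to 5 and at 1025, 956, 941, 1254 and 1091 in Cre_control 1 to 5. The groups did not overlap, and SPOP_CKI 3 was the lowest library. Qars had a log2 fold change of -0.57 (SE 0.15, limma adjusted p = 0.0207). The call was lost without Cre_control 4 (-0.50, limma adjusted p = 0.0543), without the 3 libraries with Xist reads (-0.43, limma adjusted p = 0.0706) and with no filter on low values (limma adjusted p = 0.0514).

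The other 18 cytosolic genes passed in neither direction, and for 18 of the 20 the 95% interval of the log2 fold change lay within -1 and 1, the exceptions being Vars and Wars. Among the 8 enzymes of the multisynthetase complex the median was -0.03, and Eprs (-0.08), Dars (0.02), Iars (0.13), Lars (0.11) and Mars (-0.09) had values near 0, while Kars stood at -0.31. Sars, the seryl enzyme, had SPOP_CKI below Cre_control in every library (644 to 1064 against 1079 to 1328 scaled reads) and did not pass (-0.30, limma adjusted p = 0.198). Vars, the valyl enzyme, stood at 559, 876, 180, 574 and 563 in SPOP_CKI 1 to 5 and between 761 and 888 in Cre_control. SPOP_CKI 2 lay among the controls and SPOP_CKI 3 far below them. Its log2 fold change was -0.76 (SE 0.34, limma adjusted p = 0.127). Dars, the aspartyl enzyme, stood at 2887 in SPOP_CKI 3, above the range of 920 to 1576 in the other 9 libraries. Of the 10 class II cytosolic genes none passed with limma, DESeq2 or edgeR on all 10 libraries, and 0 had an unadjusted p under 0.05 with limma. Without SPOP_CKI 3 limma again called 0, and 2 were higher at an unadjusted p under 0.05. With array weights Tars was called higher, where 17.1% of all genes were.

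The promoters of Aars, Gars, Iars, Tars and Yars are shown because they hold TGATGNAA, the core of the C/EBP-ATF response element through which ATF4 acts, and 5 of 13 cytosolic but 0 of 14 mitochondrial promoters did, against 3.97% of all 32851 promoters. The windows are 120 bases before to 30 after the start of transcription, RefSeq GRCm38.p6, 5′ to 3′ on the strand of the gene, for Aars (chr8:111033722-111033871, plus strand), Gars (chr6:55037881-55038030, plus strand), Iars (chr13:49682010-49682159, plus strand), Tars (chr15:11399629-11399778, minus strand) and Yars (chr4:129189783-129189932, plus strand). Capitals mark the motif on either strand.
Aars: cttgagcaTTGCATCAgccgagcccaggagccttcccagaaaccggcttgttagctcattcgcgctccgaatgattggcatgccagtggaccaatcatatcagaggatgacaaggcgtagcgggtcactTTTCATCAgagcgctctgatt
Gars: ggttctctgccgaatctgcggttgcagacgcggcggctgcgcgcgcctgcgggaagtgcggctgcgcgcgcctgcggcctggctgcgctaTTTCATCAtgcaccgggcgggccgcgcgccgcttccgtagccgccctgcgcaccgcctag
Iars: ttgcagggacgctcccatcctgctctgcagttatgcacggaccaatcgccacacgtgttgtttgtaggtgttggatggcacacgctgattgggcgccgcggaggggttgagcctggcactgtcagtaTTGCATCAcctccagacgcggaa
Tars: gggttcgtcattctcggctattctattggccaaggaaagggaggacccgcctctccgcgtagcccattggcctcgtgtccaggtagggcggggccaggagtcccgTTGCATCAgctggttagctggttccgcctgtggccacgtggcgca
Yars: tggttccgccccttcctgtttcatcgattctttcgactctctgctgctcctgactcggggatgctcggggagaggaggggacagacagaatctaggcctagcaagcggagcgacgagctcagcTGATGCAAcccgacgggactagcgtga
Aars holds the motif at 2 positions and the other 4 genes at 1 each. None of the 5 genes passed the limma test with all 10 libraries and equal weights. With array weights Tars and Yars were called higher, where 17.1% of all genes were. The log2 fold changes were 0.41 for Yars (limma adjusted p = 0.134), 0.34 for Tars (limma adjusted p = 0.160), 0.29 for Gars (limma adjusted p = 0.168), 0.13 for Iars (limma adjusted p = 0.516) and 0.02 for Aars (limma adjusted p = 0.958). Yars, the tyrosyl enzyme, stood at 685, 843, 408, 677 and 554 scaled reads in SPOP_CKI 1 to 5 and at 498, 446, 442, 440 and 491 in Cre_control 1 to 5. SPOP_CKI 3 lay below all 5 controls and the other 4 SPOP_CKI libraries above them. Without SPOP_CKI 3 the log2 fold change of Yars was 0.56 (limma adjusted p = 0.0134), so that Rars and Yars were called higher where 13.7% of all genes were, and without the 3 libraries with Xist reads it was 0.58 (limma adjusted p = 0.0335). All 5 genes were highest in SPOP_CKI 2, at 1502 for Aars, 1842 for Gars, 1136 for Iars, 985 for Tars and 843 for Yars. That library was the highest for 10 of the 20 cytosolic genes and for 15.1% of all genes tested. The others of the 10 were Cars, Nars, Rars, Wars and Farsa. Farsa had a promoter window without the motif, and the rest had no entry.

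Within each library the cytosolic and the mitochondrial enzyme for the same amino acid could be set against each other. For 13 amino acids the cytosolic and mitochondrial genes are named as a pair, as Aars and Aars2 are. The log2 difference, cytosolic minus mitochondrial gene, was on average larger in SPOP_CKI than in Cre_control for 12 of the 13. The median shift was 0.72. Phenylalanine, glutamate and proline, served in the cytosol by Farsa, Farsb and Eprs, were left out of these counts. Their shifts were 1.02 for Farsa/Fars2, 1.22 for Farsb/Fars2, 0.007 for Eprs/Ears2 and 1.13 for Eprs/Pars2. Only Eprs/Pars2 among them had groups that did not overlap. The groups did not overlap for 4 of the 13: the shift was 1.41 for Aars/Aars2, 1.41 for Tars/Tars2, 0.90 for Iars/Iars2 and 0.64 for Rars/Rars2. For 0 of the 13 was SPOP_CKI lower in every library. Without SPOP_CKI 3 the groups did not overlap for 7 of the 13. The exception in direction was Mars/Mars2, whose difference was 1.04 ± 0.45 in SPOP_CKI and 1.12 ± 0.03 in Cre_control. The median shift was that of Wars/Wars2, whose difference was 5.99 in SPOP_CKI 2 and 2.67 to 3.60 in the other SPOP_CKI libraries. The pairs next to it in order had shifts of 0.64 (Rars/Rars2) and 0.82 (Nars/Nars2). These differences reuse the values of the single genes and were not tested. How often other pairs of genes do not overlap was not computed.

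The Iars/Iars2 difference illustrates the shift. In Cre_control the mitochondrial gene was the higher one by reads in every heart, with log2 differences between -1.33 and -0.93. In SPOP_CKI the values were -0.45, 0.48, -0.48, -0.22 and -0.34 in libraries 1 to 5. In SPOP_CKI 2 the cytosolic gene thus had more reads than the mitochondrial one, and in the other 4 the gap was smaller than in any control. For Tars/Tars2 the controls lay between -0.15 and 0.26 and SPOP_CKI between 0.64 and 2.83.

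**Figure D3:**
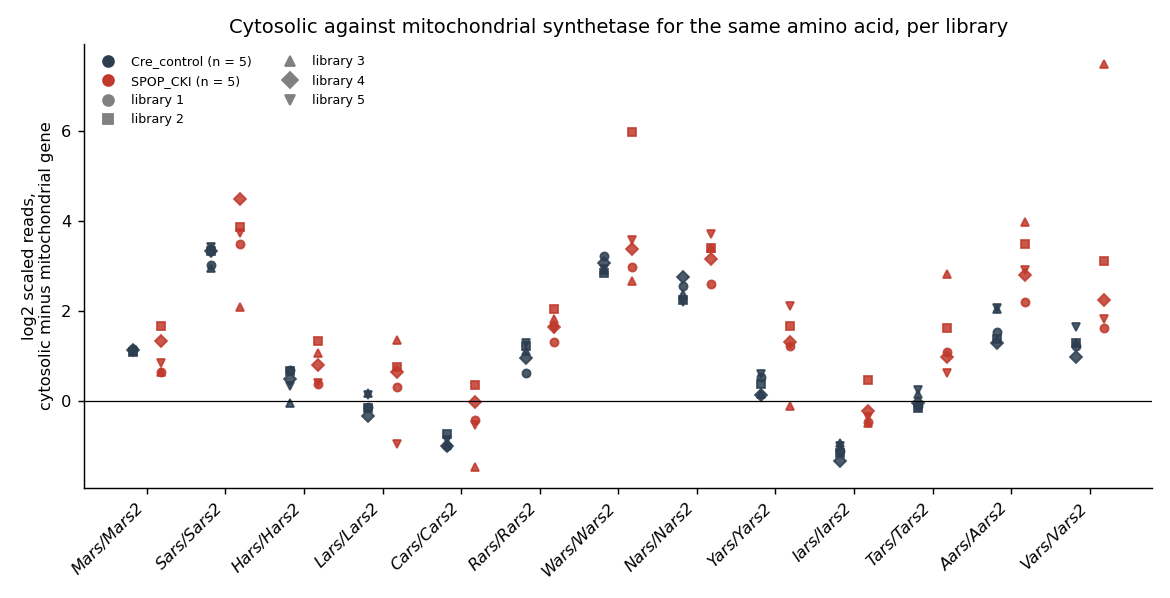
Log2 difference of scaled reads (each + 1), cytosolic minus mitochondrial gene for the same amino acid, in each library for 13 amino acids ordered by the shift between groups; marker shape gives the library number. Red points (SPOP_CKI, n = 5) lie above all dark points (Cre_control, n = 5) for Rars/Rars2, Iars/Iars2, Tars/Tars2 and Aars/Aars2, and the topmost point for Vars/Vars2 is SPOP_CKI 3, where Vars2 had 0 reads.

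Wars, the cytosolic tryptophanyl enzyme, was high in a single heart. Wars (ENSMUSG00000021266, chromosome 12, 108860030 to 108894174, minus strand) stood at 950, 6695, 768, 991 and 1096 scaled reads in SPOP_CKI 1 to 5 and at 909, 1061, 990, 1039 and 997 in Cre_control 1 to 5. SPOP_CKI 2 was 6.70 times the control mean and the other 4 SPOP_CKI libraries lay within or near the control range. The log2 fold change between the groups was 0.48 (SE 0.49, limma adjusted p = 0.494). Wars2, its mitochondrial counterpart, stood at 104 in SPOP_CKI 2, within the range of 89.7 to 145 of all other libraries.

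The same heart had the highest level of the 10 libraries for 13 of 15 interferon-induced genes, with a median of 4.41 times the control mean. Gbp2, a guanylate-binding protein, stood at 24.2 times the control mean, Gbp3 at 11.9, Gbp7 at 10.6 and Irf1, an interferon regulatory factor, at 6.72. SPOP_CKI 2 was highest for 10 of the 20 cytosolic synthetase genes and for 0 of the 16 mitochondrial ones, where it was highest for 15.1% of all genes tested. Its median ratio to the control mean was 1.26 over the cytosolic and 0.59 over the mitochondrial genes. Of the 15 interferon-induced genes 0 were called between the groups with limma and 1 had an unadjusted p under 0.05. DESeq2 called 3 of the 15 higher, where 14.9% of all genes were, and edgeR 2, where 11.8% were. These counts lie near the shares of all genes. Without the 3 libraries with Xist reads limma called 8 of the 15 higher, where 13.9% of all genes were, and SPOP_CKI 1, which lay below the control mean in all of the genes just named, was among those left out.

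**Figure D4:**
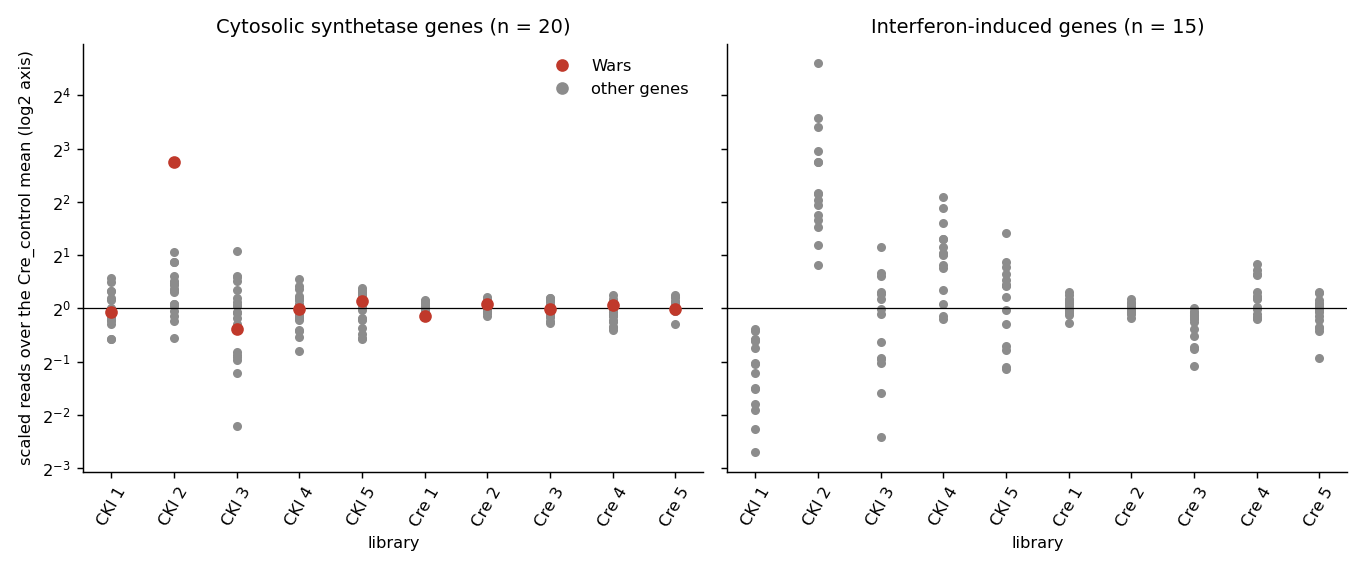
Scaled reads divided by the Cre_control mean of the gene (log2 axis) in each of the 10 libraries, for 20 cytosolic synthetase genes (left, Wars in red) and 15 interferon-induced genes (right); CKI stands for SPOP_CKI and Cre for Cre_control. Wars lies near 1 in 9 libraries and at 6.70 in SPOP_CKI 2, where the interferon-induced genes are also high; Isg15 in SPOP_CKI 3, at 0, cannot be drawn on this axis.

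SPOP_CKI 3 lay below all 5 controls for 10 of the 20 cytosolic and 8 of the 16 mitochondrial genes. The share of all genes for that count was not computed. It was the lowest of the 10 libraries for 9 cytosolic and 5 mitochondrial genes, where it was lowest for 37.4% of all genes tested. It was the highest for 5 cytosolic and 4 mitochondrial genes, where it was highest for 21.6% of all genes tested. Across the 36 genes its deviation from the other 4 SPOP_CKI libraries went down with transcript GC content (Pearson r = -0.56, Spearman rho = -0.52, n = 36 genes of 1 library), and without Vars2 r was -0.51. Across 14201 tested genes r was -0.35 and rho -0.44. These are descriptions across genes that share a library. The part of GC content in the group differences was examined by centring only. With it the log2 fold changes of Fars2 (-0.99), Iars2 (-0.91), Aars2 (-0.76), Pars2 (-1.01) and Qars (-0.48) were still called lower, with limma adjusted p between 0.00142 and 0.0398, and Nars2 was added (-0.88, limma adjusted p = 0.0340), where 8.67% of all genes were called lower and 9.32% higher. The values of Cars2 and Sars2, both called lower without SPOP_CKI 3, moved with centring from -0.40 to -0.02 and from -0.63 to -0.0044, and that of Ears2 moved from -0.09 to 0.21.

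Partners of the synthetases were taken from 10 further lists, whose counts are to be read against the 10.0% of all genes called higher and the 12.3% called lower. Of the 3 scaffold genes of the multisynthetase complex, Eef1e1 rose, from 102 ± 14.6 to 290 ± 116 scaled reads (log2 fold change 1.42, SE 0.26, limma adjusted p = 0.00424), while Aimp1 (-0.25) and Aimp2 (0.22) did not pass. Every SPOP_CKI library of Eef1e1 (175 to 473) lay above every control (87.5 to 123). Of 4 genes that complete glutaminyl-tRNA and formylate the initiator tRNA in mitochondria, Gatb, a subunit of the amidotransferase that works after Ears2, fell (782 ± 31.5 to 472 ± 114, -0.76, limma adjusted p = 0.0110). Of 5 tested genes that clear wrongly charged tRNA, Dtd1 fell (-0.94, limma adjusted p = 0.0110).

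The mitochondrial factors that use charged tRNA were examined next. Of 9 mitochondrial initiation, elongation and release factors 5 fell, where 12.3% of all genes did, and 0 rose, with a median log2 fold change of -0.65. With GC centring 3 of the 9 were called lower, where 8.67% of all genes were. None of the 9 was higher at an unadjusted p under 0.05 with limma, and DESeq2 and edgeR called 0 higher. Tufm, the mitochondrial elongation factor that carries charged tRNA to the ribosome, stood at 1569, 1026, 584, 1096 and 1191 scaled reads in SPOP_CKI 1 to 5 and at 3642, 3709, 2830, 3101 and 2244 in Cre_control 1 to 5. The groups did not overlap, and the log2 fold change was -1.55 (SE 0.25, limma adjusted p = 0.00213). Mtif3, an initiation factor (-0.79, limma adjusted p = 0.00980), and Gfm2, which recycles mitochondrial ribosomes (-0.65, limma adjusted p = 0.0101), were the other 2 with the smallest p. Of 13 genes for processing and modification of mitochondrial tRNA 3 fell (Elac2 -0.63, Hsd17b10 -0.74, Mto1 -0.58), 0 rose with any of the 3 tools or at an unadjusted p under 0.05, and the median was -0.58. The call of Mto1 was lost in 12 of the 21 alternative settings, that of Hsd17b10 in 9 and that of Elac2 in 6. EdgeR called 2 of the 13 lower, where 10.4% of all genes were. In the cytosol 3 of 7 elongation factor genes fell and 0 rose by the same 4 counts: Eef2k, the kinase of elongation factor 2 (-1.45, limma adjusted p = 0.000634), Eef1a2, the muscle form of elongation factor 1 alpha (-1.10, limma adjusted p = 0.0411), and Eef1d (-0.49, limma adjusted p = 0.0383, but 0.025 with GC centring as the log2 fold change). The call of Eef1a2 was lost in 10 of the 21 settings and that of Eef1d in 8, apart from its change of sign. EdgeR called 2 of the 7 lower (10.4% of all genes) and GC centring 1 (8.67%).

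Of 15 amino acid transporter genes tested, 5 rose (Slc38a1, Slc38a2, Slc38a4, Slc1a4 and Slc7a5) and 1 fell, where 10.0% of all genes rose and 12.3% fell. Slc38a2, a carrier of small neutral amino acids, stood between 6868 and 10315 scaled reads in SPOP_CKI and between 2138 and 5257 in Cre_control (log2 fold change 1.30, limma adjusted p = 0.00338). Slc38a1 (1.63, limma adjusted p = 0.00147) and Slc1a4 (1.85, limma adjusted p = 0.00505) also had groups that did not overlap, and Slc38a3 fell (-0.99, limma adjusted p = 0.0344). The groups of Slc38a3 overlapped, and its call was lost in 8 of the 21 settings, edgeR and GC centring among them.

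Genes reported as ATF4 targets did not move in a single direction. Of 24 tested genes besides the synthetases, 4 rose and 6 fell, where 10.0% and 12.3% of all genes did, with a median of -0.30. The sign of that median was not stable: it was 0.08 without SPOP_CKI 3, 0.24 with GC centring and -0.11 without the 3 libraries with Xist reads. Without SPOP_CKI 3, 5 were called higher and 8 lower, where 13.7% and 17.4% of all genes were. With GC centring 5 were called higher and 4 lower, where 9.32% and 8.67% of all genes were. Gdf15, a secreted stress cytokine, stood at 630, 3746, 67.4, 2032 and 115 scaled reads in SPOP_CKI 1 to 5 and at most at 24.9 in Cre_control. SPOP_CKI 2 was the highest library here as well. The log2 fold change of Gdf15 was 5.26 (SE 1.04, limma adjusted p = 0.00601). Asns, asparagine synthetase, rose (1.73, limma adjusted p = 0.0127), as did Cebpg (0.71, limma adjusted p = 0.0120). The members that fell included Vldlr (-1.32, limma adjusted p = 0.00460), Shmt2 (-1.07, limma adjusted p = 0.00539) and Pck2 (-1.03, limma adjusted p = 0.00538), of which Shmt2 and Pck2 encode mitochondrial enzymes of serine and phosphoenolpyruvate metabolism. Atf4 itself stood at 1212 ± 984 in SPOP_CKI and 1225 ± 221 in Cre_control and did not pass (-0.59, limma adjusted p = 0.532). Of 7 genes for eIF2 kinases and the phosphatase that opposes them 1 fell, Ppp1r15a (-1.39, limma adjusted p = 0.0398), a share near that of all genes. Its groups overlapped, and the call was lost in 10 of the 21 settings, among them edgeR, GC centring and the omission of any 1 Cre_control library.

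**Figure D5:**
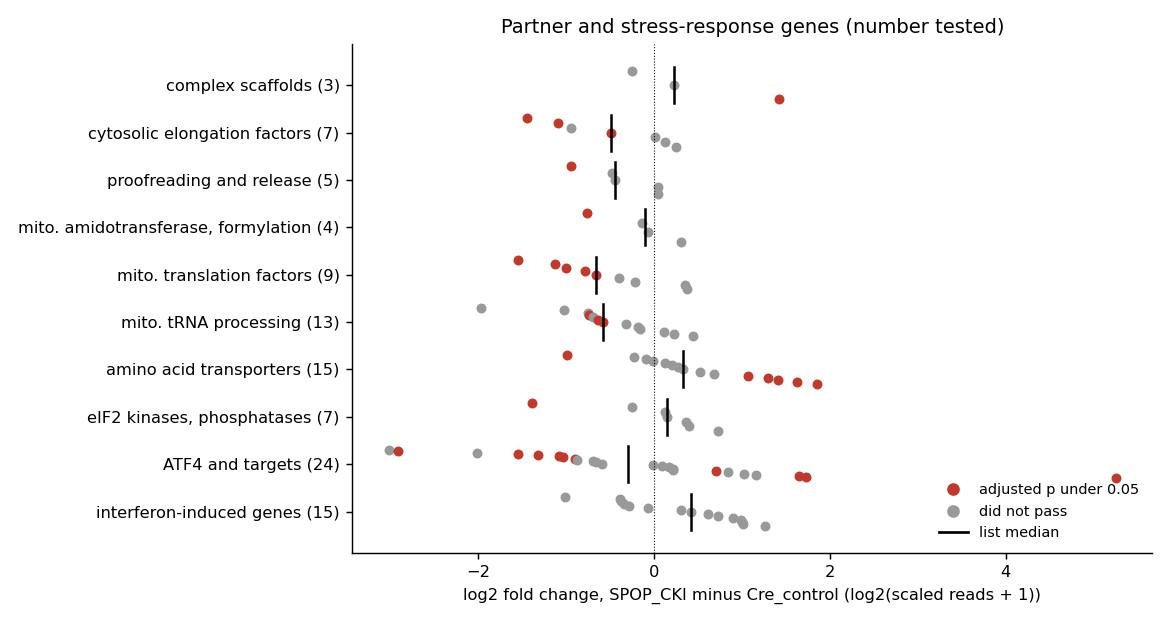
Log2 fold change of log2(scaled reads + 1), SPOP_CKI minus Cre_control, of each tested gene in 10 lists of partner and stress-response genes (number tested in brackets); red marks an adjusted p under 0.05 and the black bar the list median. The mitochondrial translation factors have 5 called genes, all below 0, the amino acid transporters 5 above 0 and 1 below, and the rightmost point is Gdf15 at 5.26.

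Markers of the cell types of the heart also differed between the groups. The counts stand against 10.0% of all genes called higher and 12.3% called lower, and some of them, such as 1 of 8, lie near those shares. Of 12 cardiomyocyte markers 5 fell and 1 rose (Actc1), and their summed level was 393076 to 715128 scaled reads in SPOP_CKI and 685599 to 892294 in Cre_control. Ckm, the muscle creatine kinase (-2.01, limma adjusted p = 0.0030), and Myh6, the gene whose promoter drives Cre (-1.59, limma adjusted p = 0.0145), were among those that fell. Of 10 fibroblast markers 2 rose, Lum and Postn, with sums of 32962 to 149029 against 30785 to 34907. DESeq2 and edgeR each called 6 of the 10 higher (14.9% and 11.8% of all genes), and 6 had an unadjusted p under 0.05 with limma. Limma called 4 higher without SPOP_CKI 3 (13.7% of all genes) and 6 without the 3 libraries with Xist reads (13.9%). With GC centring it called 0 (9.32%). Of 8 endothelial markers 3 fell, with sums of 21318 to 29715 against 29717 to 36182. Of 8 smooth muscle markers 1 rose and 1 fell, of 8 macrophage markers 2 rose, and the 3 tested of 4 neutrophil markers rose. Of 5 erythroid markers 4 fell. Of 7 lymphocyte markers 1 was tested and it did not pass. No listed marker was at 0 in every library. The part of these shifts in the synthetase results was not tested.

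In the authors' deposited table, adjusted p was under 0.05 for 5 mitochondrial synthetase genes, all lower in SPOP_CKI (Fars2, Iars2, Aars2, Pars2 and Tars2). Of its 24667 genes with a p-value, 8.08% were lower. That share counts genes below the minimum level that all 36 members passed, and DESeq2 on the genes above it called 14.3% lower. Of the cytosolic genes Qars was lower and Rars higher in the authors' deposited table, where 8.26% of the same 24667 genes were higher. In GENCODE M21, 13 of the 36 genes share exonic bases with another gene, among them Fars2 with 501 bases in Nrn1 and 115 in Lyrm4, and Hars with 195 in Hars2, so reads there could belong to either gene.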

How the data were processed

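Hearts of 10 mice were grouped by genotype and title in the labels. The per-library values the authors deposited are a scaled read signal. The submitters' processing notes name featureCounts 1.5.0-p3, DESeq2 1.20.0 and the build mm10. No source used here gives the aligner, annotation release or strand setting. Further columns the authors deposited hold log2 fold changes and p-values with their adjusted form, used only where named. When each library was divided by what 1 read is worth, 100% of values were whole (tolerance 0.001), with 15316293 to 17114869 reads per library.

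Scaled values call for a test on a log scale, here limma 3.58.1 (intensity trend, robust variances, R 4.3.3) on log2(value + 1), two-sided, with Benjamini-Hochberg adjustment over the 14212 genes that reached 10 scaled reads in 5 or more libraries. The script was tested on simulated data. Alternatives were DESeq2 1.42.0 and edgeR 4.0.16 on recovered reads, TMM scaling, quantile normalization, pseudocount 10, no filter or a filter at 50, array weights, a replicate block, each library left out, the 3 libraries with at least 10 scaled reads of Xist left out, and centring in 20 bins of GC content, which was added after seeing the data. Members, lists and alternatives were chosen with earlier results of these data known. All 36 members and Spop are named, and from each further list up to 3 called genes per direction with the smallest p, or the 2 with the smallest p where none was called. Other genes named were chosen after their values were seen. Promoter sequences are from RefSeq (GRCm38.p6), with Mars matched as Mars1 on the same chromosome. Exon overlap and GC content are from GENCODE M21.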

Additional observations from a re-analysis of the deposited data

Results flagged for a closer look

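In 12 of 124 sets of 5 libraries (62 genes in each group), 1 library lay far from the other 4 by Dixon's test; chance alone gives about 1 in 20. SPOP_CKI 3 accounted for 4 of them: Dars at 2887 and Lars at 1219 scaled reads were high, and Sars at 644 and Tars2 at 77.1 were low. SPOP_CKI 2 accounted for 3, each of them high, with Wars at 6695, Rars at 1041 and Gbp7 at 4311. Cre_control 4 was high for Dtd1 (316) and Ppp1r15a (1293), both of which are called lower in SPOP_CKI. The others were Lars2 in SPOP_CKI 5 (1911), Rars2 in Cre_control 1 (320.4) and Cars in Cre_control 3, which was low at 212.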

How the results depend on the processing

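Across 61 named genes and 21 alternatives, calls were lost in 78 cases and gained in 38. In 1 further case, Eef1d with GC centring, a gene called lower changed sign (0.025) and was not called higher. Fars2 and Iars2 were called lower in all 21. Array weights gave 2429 higher and 2891 lower genes (17.1% and 20.3%), 3 higher and 2 lower cytosolic and 10 lower mitochondrial. They called 20 of the 105 partner genes higher. Without the Xist libraries 2 cytosolic genes were higher and 0 lower, 9 mitochondrial lower and 21 partner genes higher. Of all genes 13.9% were higher and 17.1% lower there. GC centring left 0 cytosolic higher and 13 partner genes lower, where 8.67% of all genes were lower. The limma fit that the alternatives are set against had 21 partner genes lower and 10 higher. No filter left 0 cytosolic lower, and DESeq2 gave 16 partner genes higher, where 14.9% of all genes were. Leaving out 1 library gave 891 to 1930 higher and 1034 to 2451 lower genes, 0 to 2 higher and 0 to 1 lower cytosolic, 0 higher and 2 to 9 lower mitochondrial, 9 to 15 higher and 12 to 28 lower partner genes, and a Spop log2 fold change of 3.11 to 3.28. Counts moved by over 1.5 times without Cre_control 1, without Cre_control 2 (1124 lower genes and 12 lower partner genes), without Cre_control 4 or without SPOP_CKI 3. The highest count of higher partner genes came without SPOP_CKI 1 and the highest Spop value without SPOP_CKI 2. Relative to the all-gene median of -0.11, DESeq2, edgeR and quantile normalization shifted values by 0.12, 0.13 and 0.14. The replicate block gave 1310 higher and 1636 lower genes, 1 higher and 1 lower cytosolic and 4 lower mitochondrial. Same-numbered libraries correlated by 0.03 to 0.16 in their deviations, not all over 0.1, and not every library correlated best with its own number, so the numbers were not taken as a pairing. Depth limits Pars2, whose lowest library had 24.5 scaled reads.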
